A study of Mus musculus with 2 samples.

Results

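The p53 target genes are 33 genes listed by symbol as known transcriptional targets of p53 and read in poly(A)+ RNA-seq of mouse embryonic fibroblasts, connective tissue cells cultured from embryos. All 33 were among the 24015 genes of the deposited expression table. The study compared cells labelled Adar2-WT (genotype Adar2+/+) with cells labelled Adar2-KO (genotype Adar2-/-), both untreated and kept in DMEM with serum and antibiotics, with 1 library per genotype. Adar2, listed as Adarb1, is an enzyme that edits adenosine to inosine in double-stranded RNA. How many embryos stood behind each culture, the passage and any immortalization are not stated in the labels. With 1 library per genotype, the variation between cultures is unknown, and each interval below covers counting error only. In these bulk samples, a change in the share of cells expressing a gene and a change in RNA per cell cannot be told apart.

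The protein p53, encoded by Trp53, is a transcription factor that is kept low by the ubiquitin ligase Mdm2 and accumulates when DNA is damaged or oncogenes are active. It binds DNA as a tetramer at paired decamers and switches on genes that halt the cell cycle, trigger apoptosis or aid DNA repair, along with genes such as Mdm2 that limit p53 itself. In cultured fibroblasts the p19Arf product of Cdkn2a blocks Mdm2, and loss of either Cdkn2a or p53 is a known route by which such cultures escape senescence.

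The libraries rested on 9446911 reads (WT-labelled) and 9546998 reads (KO-labelled). Adarb1, the targeted gene, had 18.4 RPKM (WT-labelled) and 25.8 RPKM (KO-labelled), so it was higher in the library labelled as lacking it. The labels do not name the deleted part, which a whole-gene value could miss, and all directions are those of the labels. The authors' lists of edited sites run the way the labels say, with 654 sites for the WT-labelled and 110 for the KO-labelled library. Adar, the gene of another editing enzyme, had 28.0 RPKM (WT-labelled) and 18.7 RPKM (KO-labelled), with a log2 reads ratio interval of -0.69 to -0.47. The site counts thus do not single out Adar2, and the part of either gene in them was not tested. RPKM is reads per unit of gene length and per unit of library size, which allows a rough comparison of levels between genes. Among genes with recovered reads the densest had 0.997 (WT-labelled) and 1.19 (KO-labelled) reads per base. Given this ceiling, levels and ratios of abundant genes may be compressed. All 12 fibroblast markers reached 1 RPKM, with sums of 590.7 and 595.2 RPKM in the WT-labelled and KO-labelled libraries. The 6 epithelial markers summed to 2.36 and 1.77 RPKM and the 4 endothelial markers to 1.61 and 0.275 RPKM. The 7 haematopoietic markers summed to 11.3 and 11.1 RPKM, the 5 neural markers to 91.3 and 70.1 RPKM, the 4 muscle markers to 66.9 and 71.7 RPKM and the 3 pluripotency markers to 0.923 and 3.16 RPKM. Of the muscle markers Acta2 alone had 66.1 and 71.3 RPKM, Des had 0.760 and 0.342 RPKM, and Myod1 and Myog were at 0 in both libraries. Single markers differed in both directions within a list: among fibroblast markers Thy1 had 9.40 and 72.1 RPKM but Dcn 29.7 and 12.3, Lum 19.1 and 11.3, Pdgfra 40.6 and 29.2, Pdgfrb 47.7 and 35.4 and Twist1 48.4 and 38.2 RPKM. Among neural markers Sox2 had 24.2 and 0.171, Map2 32.7 and 15.8 and Tubb3 20.1 and 15.7 RPKM, but Nes 14.3 and 38.4 RPKM. Sox10 was at 0 in both libraries. The part of these marker differences in the results was not tested.

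Some of the genes carry the p53 binding pattern close to a start site. RefSeq promoter windows (GRCm38.p6, 250 bases before to 50 after the start) were present for 25 of the 33 genes, and both strands were read at once because the p53 decamer is its own reverse complement. A match was a pair of adjacent decamers with both central cores intact (for example CATG, always weakly pairing bases within a C and a G) and at most 3 departures elsewhere, an allowance chosen after matches had been seen. Such a match lay in the windows of 4 genes, 16.0% of the 25 with a window, and in 0.572% of all 32851 windows (0.673% of symbols). It is a match of letters and not a measured binding site. The matches are shown with the paired decamers in capitals and 5 flanking bases on each side, because these genes stand for the arrest and apoptosis groups.
Cdkn1a: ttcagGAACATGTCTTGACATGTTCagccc
Ckap2: tctgaAGACATGTCCTGACTTGTCAagcct
Bbc3: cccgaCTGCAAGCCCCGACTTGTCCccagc
Aen: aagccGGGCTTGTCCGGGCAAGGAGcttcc
The Cdkn1a stretch lies at chr17:29090923-29090952 on the plus strand, its match beginning 51 bases before one of the listed starts and departing from the consensus at 1 position. That of Ckap2 lies at chr8:22185998-22186027 on the minus strand, 203 bases before the start, with 2 departures. Those of Bbc3 (chr7:16309481-16309510, plus strand, 97 bases before a start) and Aen (chr7:78895932-78895961, plus strand, 121 bases before one start and 11 bases after another) have 3 departures each. The 8 genes with no window in the table were Pmaip1, Perp, Trp53inp1, Tnfrsf10b, Zmat3, Rrm2b, Xpc and Ddb2.

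As a group the p53 targets had higher values in the KO-labelled library. Of the 33 genes, 29 had the higher RPKM there, beside 50.8% of the 13867 compared genes (those reaching 1 RPKM in either library), and all 33 passed that filter. Their median log2 ratio was 0.28, computed as log2((KO + 1)/(WT + 1)) of the RPKM values, against 0.01 for all compared genes. Most differences were modest: 3 genes (Perp, Eda2r and Trp53inp1) were at least 2-fold higher on that scale, beside 4.42% of all compared genes. None of the 33 was at least 2-fold lower, beside 7.46%. The exact 95% interval of the log2 ratio of reads lay above 0 for 21 genes, below 0 for 1 gene (Rprm) and held 0 for 11. Among all compared genes whose reads could be recovered, it lay above 0 for 28.1% and below 0 for 27.5%, so an interval that leaves out 0 was common in these libraries. With 1 library per genotype no test across genes was made.

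**Figure D1:**
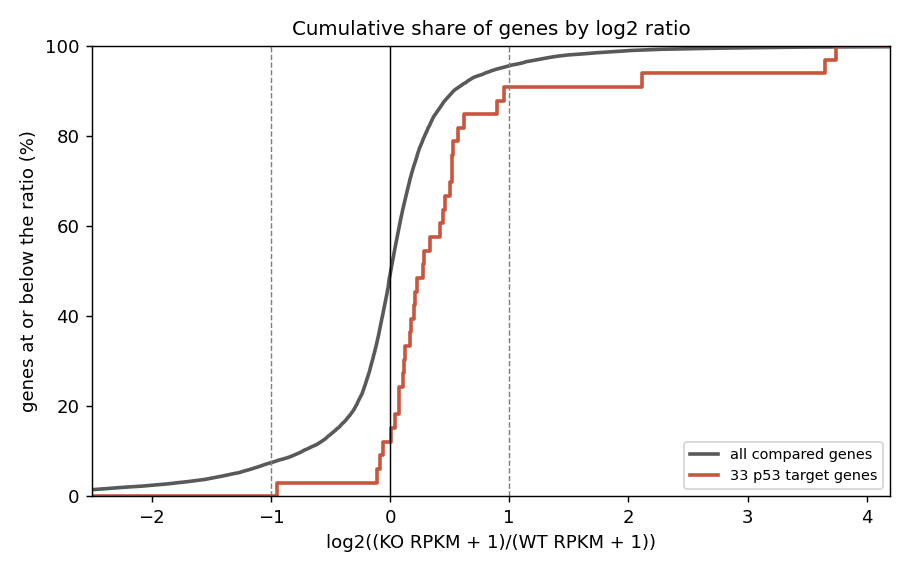
Cumulative share of genes (percent, y axis) at or below each log2 ratio of RPKM + 1, KO-labelled over WT-labelled (x axis), for the 33 p53 target genes and all 13867 compared genes; dashed lines mark 2-fold. The curve of the p53 targets lies to the right of that of all genes, with medians of 0.28 and 0.01, and its steps at the far right are Trp53inp1, Eda2r and Perp.

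Levels spread widely among the 33 genes. In the WT-labelled library they ran from 0.600 RPKM (Eda2r) to 60.2 RPKM (Phlda3), with a median of 22.9 RPKM. In the KO-labelled library they ran from 1.55 RPKM (Gdf15) to 68.0 RPKM (Phlda3), with a median of 30.6 RPKM. Phlda3 and Bax had the highest and second highest RPKM in both libraries, while Cdkn1a ranked 10 in the WT-labelled and 3 in the KO-labelled library. Ranks among abundant genes are uncertain because their levels may be compressed. In both libraries 26 genes had at least 10 RPKM.

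**Figure D2:**
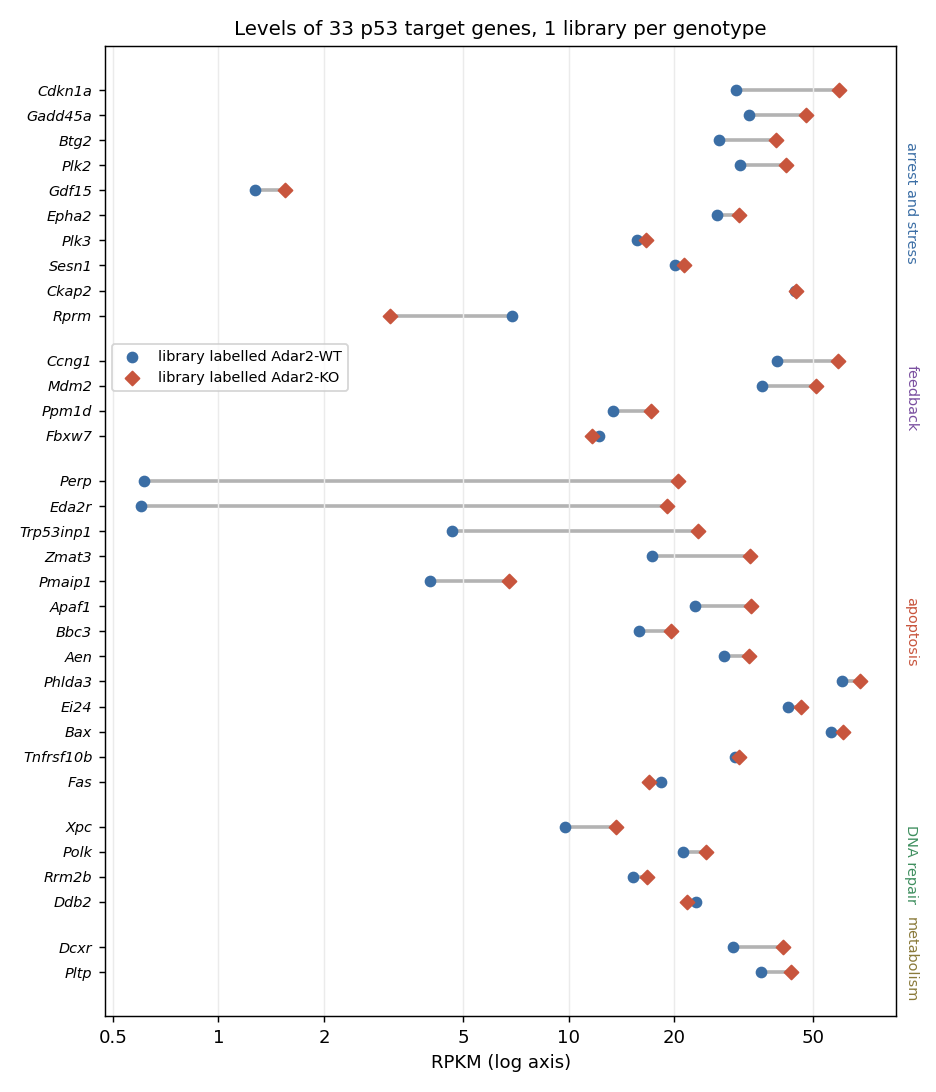
RPKM (log axis) of each of the 33 p53 target genes in the library labelled Adar2-WT (circles) and the library labelled Adar2-KO (diamonds), grouped by role and joined by a line. Perp and Eda2r span the longest lines, from about the lowest levels in the WT-labelled library to 20.6 and 19.1 RPKM in the KO-labelled library.

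Genes of cell cycle arrest and stress signalling were led by Cdkn1a, which encodes the CDK inhibitor p21 and is the best known p53 target. Cdkn1a had 30.1 RPKM from 577 reads when WT-labelled and 59.3 RPKM from 1147 reads when KO-labelled. The KO-labelled value was 1.97 times the other, just under the 2-fold line, and the log2 ratio of reads had an interval of 0.83 to 1.12. At 0.566 reads per base in the KO-labelled library, the gene's ratio may be compressed. Among the sequences above, that of Cdkn1a is the closest to the consensus.

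Btg2 and Gadd45a, both growth-restraining stress genes, were higher by a smaller factor. Btg2, which binds the mRNA deadenylase complex, had 26.9 and 39.0 RPKM (784 and 1149 reads; interval of the log2 reads ratio 0.40 to 0.67), WT-labelled first here and below. Gadd45a, a small protein induced by DNA damage, had 32.7 and 47.5 RPKM (interval 0.35 to 0.73). An exon of Gadd45a overlaps E230016M11Rik on the opposite strand, which had 6.13 and 9.04 RPKM, and whether the counting used strand is not stated.

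The polo-like kinases of the list had different ratios. Plk2, an early p53-responsive kinase, had 31.0 and 41.6 RPKM (interval 0.30 to 0.56). Plk3, a kinase of the stress response, had 15.7 and 16.6 RPKM, and its interval (-0.13 to 0.30) held 0. It shares exonic sequence with Tctex1d4 on the opposite strand, which had 1.62 and 0.960 RPKM. The difference between the kinases' ratios was not tested.

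Other members of this group were close in both libraries. Ckap2, a spindle-associated protein whose promoter window holds one of the matches, had 44.3 and 44.7 RPKM (interval -0.11 to 0.13). Sesn1, a stress-induced restraint on mTORC1, had 20.1 and 21.3 RPKM (interval -0.08 to 0.24). Epha2, an ephrin receptor kinase, had 26.5 and 30.6 RPKM, with an interval just above 0 (0.08 to 0.33). Gdf15, a secreted stress cytokine of the TGF-beta superfamily, was scarce at 1.27 and 1.55 RPKM. Only 13 and 16 reads lay behind the Gdf15 values, so its interval was wide (-0.86 to 1.46) and no difference was detectable at this depth.

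Rprm went against the rest. It encodes Reprimo, a membrane-associated protein linked to arrest in G2, and had 6.89 RPKM (95 reads) against 3.08 RPKM (43 reads). The WT-labelled value was 2.23 times the other, with an interval of the log2 reads ratio of -1.71 to -0.62. On the scale with 1 RPKM added, its log2 ratio was -0.95. In all, 9 of the 10 genes of arrest and stress signalling were higher in the KO-labelled library, beside 50.8% of all compared genes. The interval lay above 0 for 5 of the 10, beside 28.1% of all compared genes with recovered reads. The median log2 ratio was 0.18.

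Genes that feed back on p53 were higher too, save one. Mdm2, the ubiquitin ligase that degrades p53 and is itself a p53 target, had 35.6 RPKM (1041 reads) and 50.9 RPKM (1505 reads), 1.43 times as much in the KO-labelled library (interval 0.40 to 0.63). Ccng1, cyclin G1, which brings a phosphatase to Mdm2, had 39.4 RPKM (1297 reads) and 59.0 RPKM (1963 reads), 1.5 times as much (interval 0.48 to 0.68). Ppm1d, the phosphatase Wip1 that switches off the damage signal, had 13.4 and 17.2 RPKM (interval 0.16 to 0.56). Fbxw7, the substrate adaptor of a ubiquitin ligase for cyclin E and Myc, had 12.2 and 11.7 RPKM (interval -0.24 to 0.11). Thus 3 of 4 feedback genes had an interval above 0, beside 28.1% of all compared genes with recovered reads. The median log2 ratio of the 4 was 0.42.

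**Figure D3:**
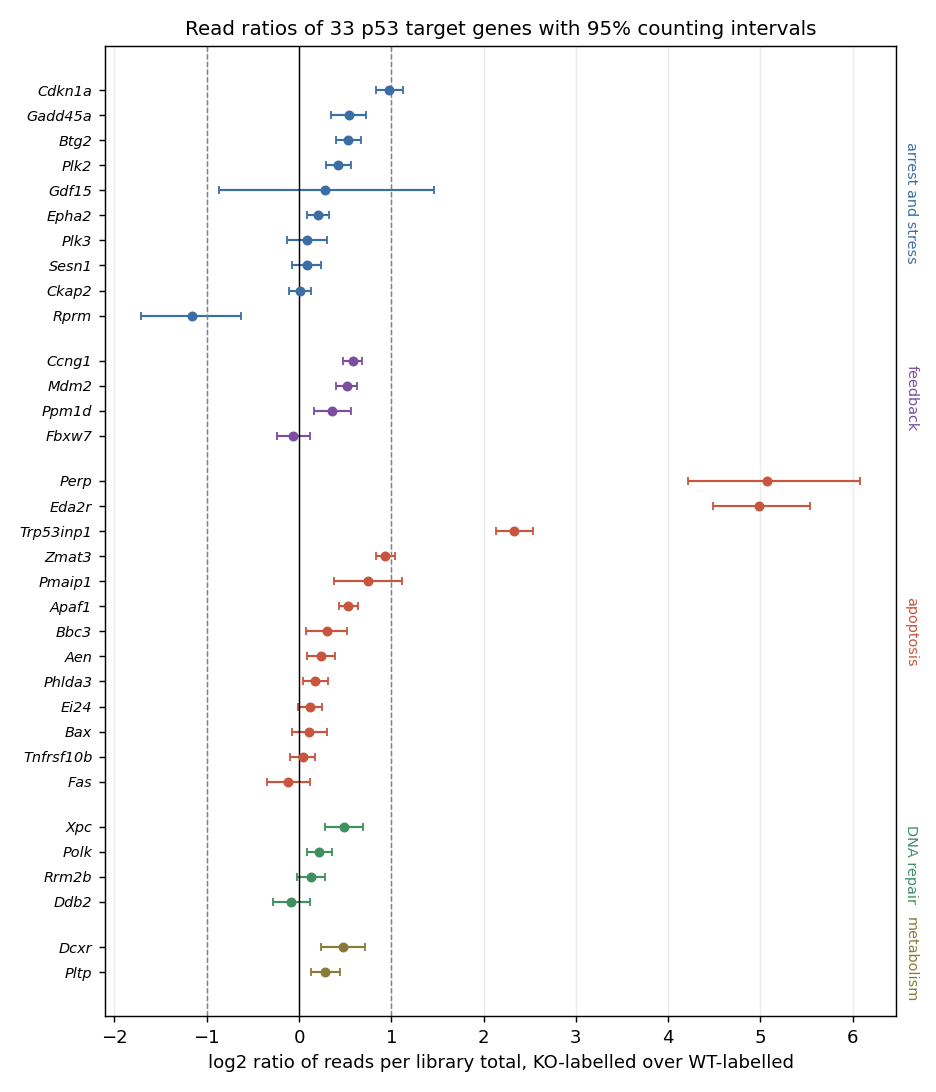
Log2 ratio of reads per library total, KO-labelled over WT-labelled, for each p53 target gene (points) with exact 95% counting intervals (bars), grouped and coloured by role; dashed lines mark 2-fold. Intervals of 21 genes lie above 0, that of Rprm lies below 0, and those of Perp, Eda2r and Trp53inp1 lie beyond 2-fold.

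The 3 genes furthest apart are all counted among the apoptosis genes. Perp, a tetraspan membrane protein of desmosomes that also acts in p53-dependent apoptosis, had 0.613 RPKM from only 11 reads in the WT-labelled library, against 20.6 RPKM from 373 reads. The KO-labelled value was 33.6 times the other, and the log2 reads ratio had an interval of 4.21 to 6.08. Perp is abundant in epithelia, and of the 6 epithelial markers only Cdh1 and Krt8 reached 1 RPKM in either library. Epcam had 0.103 and 0 RPKM, Cdh1 1.80 and 0.071 RPKM, Krt18 0.076 and 0 RPKM, Krt14 0.319 and 0.315 RPKM, Krt5 0 and 0.335 RPKM (0 and 7 reads), and Krt8 0.059 and 1.04 RPKM. Their part in the Perp difference was not tested.

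Eda2r, the receptor for ectodysplasin A2 in the TNF receptor family, was the scarcest member in the WT-labelled library. It had 0.600 RPKM (33 reads) there and reached 19.1 RPKM (1060 reads), 31.8 times as much, with an interval of 4.49 to 5.54. Trp53inp1, a stress protein that promotes p53 phosphorylation and autophagy, had 4.64 RPKM (238 reads) and 23.4 RPKM (1212 reads). That is 5.04 times as much, with an interval of 2.13 to 2.54. For each of these genes the lower end of the interval lay above 2-fold.

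Zmat3 came next, an RNA-binding zinc finger protein that alters splicing and mRNA stability. It had 17.2 RPKM (1268 reads) and 33 RPKM (2452 reads), 1.91 times as much in the KO-labelled library (interval 0.84 to 1.04). Apaf1, the scaffold of the apoptosome that activates caspase-9, had 22.9 RPKM (1421 reads) and 33.3 RPKM (2082 reads), with an interval of 0.44 to 0.63. Their intervals are narrower than that of Pmaip1 below, which rests on fewer reads.

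The BH3-only genes, whose products disarm the BCL2 guardians of mitochondria, were higher by different amounts. Pmaip1 (Noxa) had 4.03 RPKM (101 reads) and 6.75 RPKM (171 reads), with an interval of 0.38 to 1.11. Bbc3 (Puma), another gene with a promoter match, had 15.9 and 19.6 RPKM (interval 0.07 to 0.52). Their intervals overlap. Bax, the pore-forming protein on which BH3-only proteins act, had 56.3 and 60.9 RPKM, and its interval (-0.07 to 0.30) held 0.

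Death receptors of the list were close in both libraries, unlike Eda2r. Fas had 18.3 and 16.9 RPKM (interval -0.35 to 0.12), and Tnfrsf10b, the mouse TRAIL receptor, had 29.8 and 30.6 RPKM (interval -0.10 to 0.17). The remaining apoptosis genes differed little. Aen, an exonuclease of dying cells whose start region holds a match, had 27.7 and 32.7 RPKM (interval 0.09 to 0.39). Phlda3, which blocks Akt at the membrane, had 60.2 and 68.0 RPKM (interval 0.04 to 0.31), and Ei24, a protein of the endoplasmic reticulum, 42.4 and 45.9 RPKM (interval -0.01 to 0.25). Of the 13 apoptosis genes 12 were higher in the KO-labelled library, beside 50.8% of all compared genes, at a median log2 ratio of 0.28. For 9 of the 13 the interval lay above 0, beside 28.1% of all compared genes with recovered reads.

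DNA repair genes differed by small amounts. Xpc, which recognises helix distortion in nucleotide excision repair, had 9.74 RPKM (334 reads) and 13.6 RPKM (472 reads), 1.40 times as much in the KO-labelled library (interval 0.28 to 0.69). Its partner in damage recognition, Ddb2, had 23.2 and 21.8 RPKM (interval -0.29 to 0.12) and shares exonic sequence with Acp2 on the opposite strand (29.5 and 28.4 RPKM). Polk, a translesion polymerase, had 21.2 and 24.7 RPKM (interval 0.09 to 0.35). Rrm2b, the p53-induced subunit of ribonucleotide reductase, had 15.3 and 16.7 RPKM (interval -0.02 to 0.28). The median of these 4 log2 ratios was 0.17, and 2 intervals lay above 0, beside 28.1% of all compared genes with recovered reads.

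The metabolic genes of the list were both higher. Dcxr, a reductase of dicarbonyls and xylulose, had 29.4 RPKM (255 reads) and 41.0 RPKM (359 reads; interval 0.24 to 0.72). Pltp, which transfers phospholipids between lipoproteins, had 35.5 and 43.2 RPKM (interval 0.13 to 0.44). An exon of Pltp overlaps Ctsa on the opposite strand (25.0 and 24.6 RPKM).

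None of the 33 genes had an edited site in either of the authors' lists. The lists hold 654 (WT-labelled) and 110 (KO-labelled) sites, beside 24015 genes in the expression table. The share of all genes with a listed site was not computed, so this absence does not set the 33 genes apart. Absence from these lists does not show that a transcript was unedited.

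Upstream of the targets, Trp53 itself differed little, with 33.4 RPKM (589 reads) and 38.5 RPKM (686 reads; interval 0.04 to 0.37). Mdm4, the Mdm2 partner that restrains p53, had 25.6 and 37.5 RPKM (interval 0.42 to 0.68), and the damage kinase gene Atm 16.0 and 18.9 RPKM (interval 0.15 to 0.33). Chek2, a kinase between Atm and p53, had 10.5 and 11.5 RPKM (interval -0.13 to 0.41). Cdkn2a, whose p19Arf product inhibits Mdm2, had 57.7 RPKM from 619 reads, against 0.092 RPKM from 1 read when KO-labelled (interval -14.6 to -6.81). A whole-gene value does not separate the p19Arf transcript from other transcripts of the gene. Cdkn2a was the 1 member of the 26 compared regulators that was at least 2-fold apart. Of all compared genes, 4.42% passed that line upward and 7.46% downward. Of those 26 genes, 18 were higher when KO-labelled, beside 50.8% of all compared genes, with a median log2 ratio of 0.14. Reads were recovered for 25, and the interval lay above 0 for 13 and below 0 for 5. The shares among all compared genes with recovered reads were 28.1% and 27.5%. The part of the Cdkn2a difference in the values of the p53 targets was not tested.

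A second list of genes reported as p53 targets, 3 of them also in the lists of the BCL2 family or of repair genes, held values in both directions. Of its 38 compared members, 24 were higher in the KO-labelled library, beside 50.8% of all compared genes. The interval of the log2 reads ratio lay above 0 for 19 of the 38 and below 0 for 8. Among all compared genes with recovered reads the shares were 28.1% and 27.5%. On the RPKM + 1 scale 4 were past 2-fold higher and 3 past 2-fold lower, beside 4.42% and 7.46% of all compared genes, and the median log2 ratio was 0.10. Sulf2, a heparan sulfatase, had the highest log2 ratio on that scale, with 16.4 and 53.3 RPKM (reads interval 1.57 to 1.83). Psrc1, a spindle protein, had 8.78 and 24.6 RPKM. Pidd1, a death-domain protein that activates caspase-2, had 5.69 and 12.9 RPKM, and Cyfip2, a partner of the actin regulator WAVE, 0.105 and 1.37 RPKM. By reads alone Cyfip2 stood furthest apart (7 and 92 reads; interval 2.60 to 5.06), and Tgfa, a growth factor gene with 2.18 and 4.56 RPKM, was past 2-fold only without the added 1. On the other side, Sfn, the arrest protein 14-3-3 sigma, had 4.66 and 0.909 RPKM (interval -3.30 to -1.52), Crip2 18.7 and 7.79 RPKM, and the growth factor gene Fgf2 16.3 and 6.63 RPKM.

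Genes that p53 represses through p21 and the DREAM complex, most of them drivers of replication and mitosis, differed by small amounts. None of 20 was 2-fold apart, a line that 4.42% of all compared genes passed upward and 7.46% downward. In the KO-labelled library 12 were higher and 8 lower, where 50.8% of all compared genes were higher. The median log2 ratio of the 20 was 0.05. Reads were recovered for 16, and the interval of the log2 reads ratio lay above 0 for 7 and below 0 for 3. The shares among all compared genes with recovered reads were 28.1% and 27.5%. The interval held 0 for 6 of the 16, beside 44.4% of those genes. These counts leave out Ccna2 (69.5 and 68.7 RPKM), Ccnb2 (52.6 and 52.0 RPKM), Foxm1 (43.9 and 42.9 RPKM) and Cenpf (25.9 and 31.5 RPKM). Of these, Ccna2, Ccnb2 and Foxm1 had nearly equal values, so the counts of the 16 may understate how many genes of the list were close. The ends were Rrm2 (42.2 and 31.2 RPKM; interval -0.58 to -0.29) and Birc5 (17.9 and 23.9 RPKM; interval 0.26 to 0.57). 

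The list of further CDK inhibitors and the RB family, which leaves out Cdkn1a and Cdkn2a, showed no common direction. Of 8 genes, 3 were higher and 5 lower in the KO-labelled library, where 50.8% of all compared genes were higher. The median log2 ratio of the 8 was -0.05. Cdkn2b, the p15 gene next to Cdkn2a, had 49.4 RPKM (650 reads) and 16.3 RPKM (217 reads; interval -1.83 to -1.37). It was the only one of the 8 past 2-fold on the RPKM + 1 scale, a line that 4.42% of all compared genes passed upward and 7.46% downward. Cdkn1c, the p57 gene, had 2.07 and 4.96 RPKM (interval 0.70 to 1.85), which is past 2-fold without the added 1. Rbl1, the pocket protein p107, had 22.8 and 29.5 RPKM (interval 0.26 to 0.48).

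**Figure D4:**
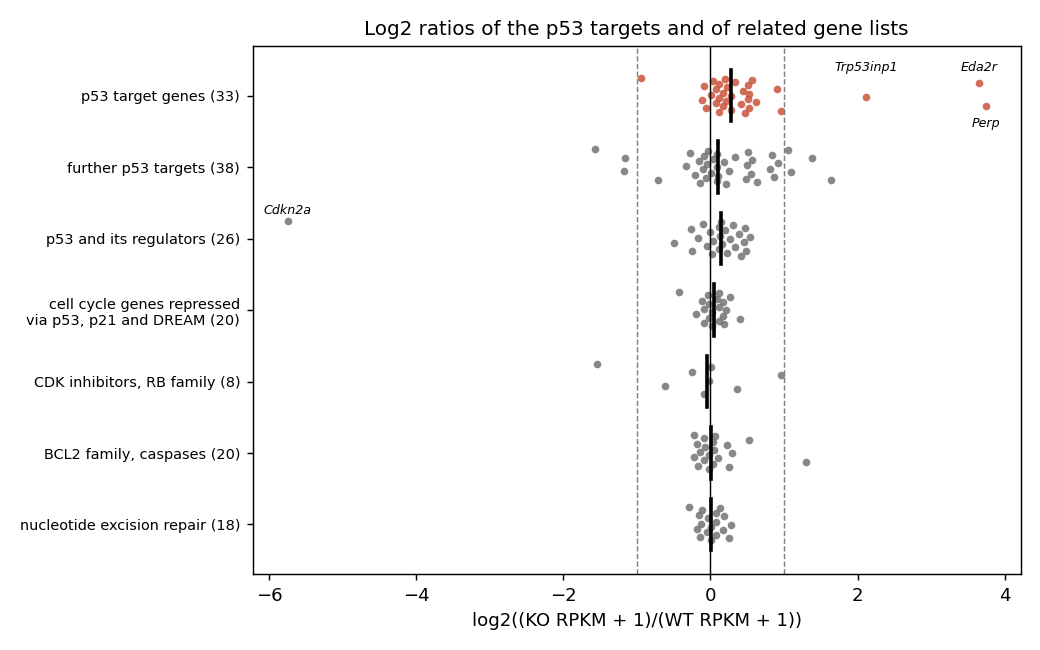
Log2 ratio of RPKM + 1, KO-labelled over WT-labelled, for the compared genes of the p53 target list and 6 related lists (1 point per gene; black bars are medians; vertical scatter only separates points; dashed lines mark 2-fold). The median of the p53 targets is 0.28 and those of the other lists lie between -0.05 and 0.14, with Cdkn2a far to the left. The lists differ in level, and ratios of abundant genes may be compressed.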

How the data were processed

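Poly(A)+ RNA was sequenced from 2 cultures, 1 library per genotype, each grouped by its title. STAR 2.4.0d, SAMtools and the build mm9 appear without a role in the submitters' processing notes. The authors' deposited table has the layout of GFOLD output and gives RPKM per library, a log2 fold change and a GFOLD value (a log2 change shrunken toward 0), per the file headers. Nothing on the annotation, the counting rule or strand is given in the sources used here. The deposited editing lists give the count of reads and of mismatches per site and the editing level as a fraction, per the file headers, and served only to look for sites in the members.

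Whole reads were recovered from the RPKM values and the authors' log2 fold changes. Totals of 9446911 and 9546998 made the implied gene lengths whole numbers (mean distance 0.0025 bases over 1481 genes and 0.0019 over 711). A single pair of read numbers gave back the 6 printed digits, to 1 unit of the last, for 95.25% of 17981 genes above 0 and for all 33 members. Intervals are exact 95% Clopper-Pearson intervals of the log2 reads ratio scaled by those totals, conditional on their sum. The reads carry no molecular identifiers, so they need not be independent molecules. Log2 ratios used a pseudocount of 1 RPKM, and genes were compared when they reached 1 RPKM in either library. The scripts were tested on simulated data. Roles follow textbook knowledge, and some members have several.

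The members, lists and settings were chosen with earlier results of these data known. All members are named. Of the related lists, the text names Trp53, Mdm4, Cdkn2a, Atm and Chek2, genes at least 2-fold apart, and the highest and lowest log2 ratio among those reaching 10 RPKM in either library; 1 result under this rule is not reported here. Of the lists' symbols, 27 of 28 (p53 and regulators) and 39 of 42 (further targets) were in the table, the missing ones including second spellings of genes already found. Exon overlaps were taken by name from GENCODE M21, in which 8 members had one. The overlaps described above are the 4 with a gene of the deposited table. Bax also overlaps Gm45808 on the same strand, and Cdkn1a (AC167363.2), Ei24 (Gm26787) and Rrm2b (Gm49085) have overlaps on the opposite strand. These partners have no deposited value. Values were computed with Python 3.11.15, numpy 2.4.6, pandas 2.3.3 and scipy 1.17.1.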

Additional observations from a re-analysis of the deposited data

How the results depend on the processing

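No paired analysis was possible because each genotype has 1 library, and for the same reason no replicate could be left out. The count of 3 members at least 2-fold higher, 0 at least 2-fold lower and the median log2 ratio of 0.28 were recomputed with 0.1 and 5 RPKM added, without the filter, with a filter of 5 RPKM, centred on the median of all genes, and from the authors' deposited columns. Rprm made the count of lower members 1 with 0.1 RPKM added and by the authors' log2 fold change, which also put Cdkn1a (1.03) past 2-fold and the count of higher members at 4. With 0.1 RPKM added, 5.99% of all compared genes were past 2-fold higher and 9.33% lower. By the authors' log2 fold change these shares were 6.44% and 8.85%. That column had a median of 0.06 over all compared genes, with 58.0% of them above 0. At a 1.5-fold threshold 6 members were higher (Cdkn1a, Zmat3 and Pmaip1 joining Perp, Eda2r and Trp53inp1) and 1 lower, where 8.99% and 12.0% of all genes passed. The authors' GFOLD value gave a median of 0.12, and Perp, Eda2r and Trp53inp1 were again the members past 2-fold. All 230 member values under an alternative had the sign of the reported value or were 0; 10 of them, all of Perp, Eda2r, Trp53inp1 or Zmat3, moved by more than the counting error. Among genes with recovered reads the densest had 0.997 (WT-labelled) and 1.19 (KO-labelled) reads per base, a ceiling whose source is not given. Levels and ratios of abundant genes may therefore be compressed. Without the 4 members above 0.5 reads per base in a library (Cdkn1a, Ccng1, Bax and Phlda3), an alternative chosen after seeing the data, the median was 0.28. Of the 29 members left, 25 were higher, beside 50.8% of all compared genes.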

Other observations

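The BCL2 family and the caspases, which carry out apoptosis downstream of several p53 targets, showed no common direction. Of 20 compared genes, 10 were higher and 10 lower in the KO-labelled library, where 50.8% of all compared genes were higher. The median log2 ratio of the 20 was 0.01. Reads were recovered for 17, and 8 of their intervals held 0, near the 44.4% of all compared genes with recovered reads. Of the 17 intervals, 4 lay above 0 and 5 below, beside 28.1% and 27.5% of those genes. These counts leave out Bcl2l11 (11.7 and 11.5 RPKM), Mcl1 (49.7 and 49.2 RPKM) and Xiap (32.1 and 33.4 RPKM), whose values were nearly equal. The 1 gene beyond 2-fold was Bmf, a BH3-only gene, where 4.42% of all compared genes passed that line upward and 7.46% downward. Bmf had 3.36 RPKM from 147 reads (WT-labelled) and 9.77 RPKM from 432 reads (KO-labelled). Its log2 reads ratio had a 95% interval of 1.27 to 1.82. Bcl2l2, the survival protein Bcl-w, had the lowest log2 ratio of those reaching 10 RPKM in either library, with 33.9 and 28.8 RPKM.

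Nucleotide excision repair genes other than Xpc and Ddb2 were mostly close in both libraries. None of 18 was 2-fold apart, a line that 4.42% of all compared genes passed upward and 7.46% downward. In the KO-labelled library 10 were higher and 8 lower, where 50.8% of all compared genes were higher. For 12 of the 18 the interval of the log2 reads ratio held 0, beside 44.4% of all compared genes with recovered reads. At 10 RPKM or more in either library the ends were Gtf2h4, a subunit of the repair and transcription factor TFIIH, with 34.9 and 28.4 RPKM, and the endonuclease gene Ercc5, with 11.9 and 14.4 RPKM.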
